A study of Mus musculus with 24 samples.

Results

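The genes described here serve protein folding in the endoplasmic reticulum (ER) and the unfolded protein response. They were taken from a list of 32 ER chaperones, folding enzymes, stress sensors, degradation factors and translocation proteins, and where a gene had several probe sets, the brightest on average across the 24 arrays stood for it. Of the 32 listed genes, 31 were measured by a probe set assigned to a single gene, out of 18820 genes with such a probe set. Pdia4, a protein disulphide isomerase, was not used because its only probe set also carries the symbol of a microRNA gene, Mir704. The groups were liver, duodenum, jejunum and ileum of Casp1-null mice, and the same tissues of wild-type mice, with 3 arrays in each of the 8 groups. All animals were chow-fed males aged 14 to 16 weeks. Casp1-null mice lack caspase-1 and had been backcrossed for 10 generations to C57Bl/6, and the wild-type mice were age-matched C57Bl/6J animals, which the labels do not describe as littermates. Livers came from mice fasted for 16 h. Intestinal segments were taken from fasted mice 2 h after 200 µL of olive oil by gavage, and the epithelial layer was scraped off. Total RNA was hybridised to Affymetrix whole-transcript arrays, and values are deposited log2 expression levels after RMA, a background correction, normalisation and summary of probe signals. The labels do not tie replicate numbers to individual mice, so p-values measure the spread between these arrays.

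Proteins that enter the secretory pathway, including the apolipoproteins of chylomicrons and of very low density lipoproteins, fold in the ER with the help of chaperones, lectins and disulphide isomerases. When unfolded proteins accumulate, 3 membrane sensors respond: IRE1 (Ern1 and its epithelial paralogue Ern2), which splices Xbp1 mRNA, PERK (Eif2ak3), which slows translation, and ATF6, which is cleaved to a transcription factor. ATF6 and XBP1 raise the transcription of chaperones and of genes for ER-associated degradation (ERAD), which sends misfolded proteins to the proteasome. Arrays of this type report summed transcript levels and do not resolve Xbp1 splicing, ATF6 cleavage or kinase activity. Levels are compared only within a gene, since probe sets differ in brightness.

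Several of these genes share a short promoter motif through which ATF6 acts together with the factor NF-Y, the ER stress response element (ERSE), in which CCAAT and CCACG stand 9 bases apart. In a related motif, ERSE-II, ATTGG and CCACG stand 1 base apart. Both were searched on both strands of RefSeq promoter windows of 300 bases (250 before and 50 after the transcript start, GRCm38.p6), which were given for 24 of the 31 measured genes. ERSE lay in the windows of 10 of the 24 (41.7%), against 37 of 27025 genes with a window (0.137%). ERSE-II lay in 2 of the 24 (8.33%), against 12 of 27025 genes (0.0444%). The 27025 genes include the 24. The genes were listed for their part in the unfolded protein response, so these shares describe the list and do not test it. Another motif, the core TGACGTGG of the unfolded protein response element, was in the windows of 0 of the 24 and of 193 genes in all (0.714%), which says only that these letters are absent from those 24 windows. The 13 matches are shown because their holders are followed as a group below. Each is written 5′ to 3′ in the motif's own orientation, on the gene's strand (sense) or the opposite strand (antisense), with the fixed letters in capitals.
Calr ERSE, antisense, chr8:84847075-84847093: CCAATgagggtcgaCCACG
Canx ERSE, sense, chr11:50325800-50325818: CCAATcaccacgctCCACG
Creld2 ERSE, antisense, chr15:88819520-88819538: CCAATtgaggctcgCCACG
Derl3 ERSE, antisense, chr10:75893242-75893260: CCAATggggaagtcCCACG
Dnajc3 ERSE, sense, chr14:118937827-118937845: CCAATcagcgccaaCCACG
Ero1b ERSE, antisense, chr13:12565682-12565700: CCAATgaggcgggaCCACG
Hsp90b1 ERSE, antisense, chr10:86705533-86705551: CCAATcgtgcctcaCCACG
Hsp90b1 ERSE, sense, chr10:86705638-86705656: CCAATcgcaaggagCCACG
Hspa5 ERSE, sense, chr2:34772025-34772043: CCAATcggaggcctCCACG
Pdia6 ERSE, sense, chr12:17266491-17266509: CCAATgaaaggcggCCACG
Syvn1 ERSE, sense, chr19:6046532-6046550: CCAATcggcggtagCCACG
Dnajb11 ERSE-II, sense, chr16:22857852-22857862: ATTGGcCCACG
Herpud1 ERSE-II, sense, chr8:94386377-94386387: ATTGGgCCACG

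The following whole windows show how the elements sit, with the fixed letters in capitals on the gene's strand, where an antisense ERSE reads CGTGG, then the spacer, then ATTGG. Ero1b carries an antisense ERSE that begins 201 bases before the start, Hsp90b1 carries a sense and an antisense ERSE, and Herpud1 carries ERSE-II 52 bases before the start.
Ero1b, chr13:12565633-12565932, strand +: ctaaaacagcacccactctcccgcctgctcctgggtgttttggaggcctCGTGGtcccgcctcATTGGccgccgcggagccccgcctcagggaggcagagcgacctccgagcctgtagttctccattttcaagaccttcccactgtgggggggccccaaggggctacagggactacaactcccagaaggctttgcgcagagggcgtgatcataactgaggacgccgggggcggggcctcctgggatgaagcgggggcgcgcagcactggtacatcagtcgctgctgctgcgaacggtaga
Hsp90b1, chr10:86705395-86705694, strand -: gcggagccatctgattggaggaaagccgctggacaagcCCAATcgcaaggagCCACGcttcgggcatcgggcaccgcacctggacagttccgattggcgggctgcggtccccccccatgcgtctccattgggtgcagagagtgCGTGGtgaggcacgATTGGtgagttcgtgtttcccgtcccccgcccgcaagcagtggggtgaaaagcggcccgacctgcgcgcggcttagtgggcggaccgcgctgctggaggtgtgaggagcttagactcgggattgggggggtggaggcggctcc
Herpud1, chr8:94386179-94386478, strand +: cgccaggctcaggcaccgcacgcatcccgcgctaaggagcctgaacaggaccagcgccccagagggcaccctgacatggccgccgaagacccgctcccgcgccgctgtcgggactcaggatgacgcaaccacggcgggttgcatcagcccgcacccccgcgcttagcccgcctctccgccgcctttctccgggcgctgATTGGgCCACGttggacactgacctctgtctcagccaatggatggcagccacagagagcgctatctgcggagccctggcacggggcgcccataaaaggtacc

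Before the comparisons, the arrays were checked. Arrays of a group correlated at r = 0.979 to 0.993 over all probe sets, and no pair was identical. Casp1 was 6.42 to 6.53 in Casp1-null and 8.26 to 8.98 in wild-type duodenum, 5.82 to 6.52 and 9.13 to 9.44 in jejunum, and 7.26 to 7.80 and 9.28 to 9.95 in ileum, always lower in Casp1-null (limma, adjusted p = 0.000166, 3.06e-06 and 9.28e-05). In liver Casp1 was 3.80 to 4.27 in Casp1-null and 4.22 to 4.60 in wild type, below the array medians of 5.19 to 5.22, so it does not check the liver labels (adjusted p = 0.503). Where its probes lie relative to the deleted part of the gene was not examined. Hepatocyte markers averaged 12.6 to 12.7 on liver arrays and 4.19 to 4.92 on intestinal arrays, and enterocyte markers 6.42 to 7.05 and 11.3 to 12.6. Among intestinal arrays, wild-type duodenum 1 carried exocrine pancreas markers at a mean of 9.99, against 5.10 to 5.43 on the others. Casp1-null ileum 3 and wild-type ileum 2 carried smooth muscle and stroma markers at 8.58 and 8.99, against 4.42 to 5.63 on the others. Fewer cells of a type and less RNA per cell cannot be told apart in such tissue samples.

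In the jejunum, most genes of the ER folding system had a lower mean in Casp1-null than in wild-type mice, and Ero1b and Atf6 fell. The mean was lower for 28 of 31 genes, against 50.7% of all 18820 genes, with a median log2 difference of -0.28, against -0.0024 over all genes. In 14 of the 31 all 3 Casp1-null arrays lay below all 3 wild-type arrays, against 9.24% of all genes, and in 0 of 31 did they lie above, against 10.3%. A gene was called changed at a Benjamini-Hochberg adjusted p under 0.05 over all 35556 probe sets, in a limma fit of the 18 intestinal arrays. By that rule 2 of 31 were called, both lower, against 2.06% of all genes called in either direction and 3.24% of the 10870 genes above the median of all values. At an unadjusted p under 0.05 there were 13 of 31, against 12.9% of all genes.

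Ero1b encodes an ER oxidase that passes oxidising equivalents to protein disulphide isomerase. Its log2 levels were 6.84, 6.57 and 6.62 in Casp1-null jejunum, against 7.43, 7.32 and 7.56 in wild-type jejunum. The groups did not overlap, and the difference was -0.76 ± 0.12 (SE, 1.70-fold lower, adjusted p = 0.00309). In the duodenum Ero1b was 7.61, 7.78 and 7.68 in Casp1-null, against 8.32, 8.09 and 8.31 in wild type, again without overlap. It fell there by 0.55 on the log2 scale (SE 0.12, 1.46-fold, adjusted p = 0.0365). In the ileum it was 5.79, 5.66 and 5.91 in Casp1-null and 6.26, 6.07 and 6.48 in wild type, a non-overlapping difference of -0.48 ± 0.12 (SE) that did not pass the threshold (adjusted p = 0.104). The 3 segments gave differences of one sign, and their difference from one another was not called (interaction over the segments, adjusted p = 0.964). The jejunal call held in all 18 fits that left out 1 array, but not when the 6 jejunal arrays were fitted alone (adjusted p = 0.0535). The duodenal call was lost in 8 of 18 such fits, with an adjusted p of up to 0.136, namely without any one of the 3 Casp1-null duodenal arrays, wild-type duodenum 1 or 3, wild-type jejunum 1, wild-type ileum 1 or Casp1-null ileum 1.

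Atf6, the gene of the membrane-bound sensor and transcription factor, was 8.91, 8.73 and 8.96 in Casp1-null jejunum, against 9.35, 9.28 and 9.24 in wild type. It fell by 0.43 on the log2 scale (SE 0.10, 1.34-fold, adjusted p = 0.041). In the duodenum Atf6 was 8.57, 8.56 and 8.31 in Casp1-null and 8.76, 8.90 and 8.98 in wild type (difference -0.40 ± 0.10 SE, adjusted p = 0.0734). In the ileum it was 9.31, 9.43 and 9.35 in Casp1-null and 9.68, 9.46 and 9.56 in wild type (-0.20 ± 0.10, adjusted p = 0.783). In each segment the 3 Casp1-null arrays lay below the 3 wild-type arrays. The jejunal call was lost in 11 of 18 fits that left out 1 array (adjusted p up to 0.170, the highest without wild-type jejunum 1), namely without any one of the 6 jejunal arrays, wild-type duodenum 2, Casp1-null duodenum 2, wild-type ileum 3, or Casp1-null ileum 1 or 3. It was also lost when the 6 jejunal arrays were fitted alone (adjusted p = 0.167) and without the 3 intestinal arrays that carried pancreas or muscle markers (adjusted p = 0.051).

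Among the chaperones and lectins, Hsp90b1, the ER member of the HSP90 family, was 11.51, 11.27 and 10.85 in Casp1-null jejunum, against 11.84, 11.74 and 11.78 in wild type (difference -0.58 ± 0.14 SE, adjusted p = 0.0658). Calr, the soluble lectin chaperone calreticulin, was 11.51, 11.32 and 11.30 in Casp1-null, against 11.81, 11.73 and 11.74 in wild type (-0.38 ± 0.09, adjusted p = 0.0565). Hspa5, the HSP70 chaperone BiP that holds the sensors inactive, was 12.08, 11.74 and 11.81 in Casp1-null, against 12.35, 12.29 and 12.21 in wild type (-0.41 ± 0.16, adjusted p = 0.292). None of these genes overlapped between the genotypes in the jejunum, and none passed the threshold. All 7 chaperones and cochaperones, both genes of the calnexin cycle and all 5 oxidative folding genes had a lower mean in Casp1-null jejunum. Lower without overlap were 4 of the 7, both of the 2 and 4 of the 5, against 9.24% of all genes. The last 4 were Ero1b, Creld2, Pdia3 and Pdia6.

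Creld2, a secreted ER stress protein with disulphide isomerase activity, had the largest jejunal difference by size and a wide spread. It was 10.41, 9.79 and 9.65 in Casp1-null, against 11.15, 10.79 and 10.57 in wild type (-0.88 ± 0.29 SE, 1.85-fold, adjusted p = 0.195). Pdia3, the disulphide isomerase that works with calnexin and calreticulin, was 11.26, 11.21 and 10.77 in Casp1-null and 11.47, 11.55 and 11.51 in wild type (-0.43 ± 0.12, adjusted p = 0.0949). P4hb, the main protein disulphide isomerase and the small subunit of the microsomal triglyceride transfer protein complex, differed little, with 12.62, 12.56 and 12.54 in Casp1-null and 12.57, 12.68 and 12.64 in wild type. Its difference was -0.06 with a 95% interval of -0.22 to 0.10.

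Among the 5 sensors and transcription factors, Atf6 stood beside 4 genes with small differences in the jejunum. Xbp1, the transcription factor spliced by IRE1, differed by -0.16 (95% interval -0.38 to 0.06), Eif2ak3 by -0.07 (-0.49 to 0.35), Ern1 by 0.06 (-0.23 to 0.35) and Ern2 by 0.21 (-0.11 to 0.53). Ern1 and Ern2 were the only 2 of the 31 genes with a higher Casp1-null mean in all 3 segments, and neither was called in any segment. Of the 8 ERAD genes 7 had a lower jejunal mean and 0 were called. Herpud1, which organises the degradation complex, was 11.53, 11.22 and 11.66 in Casp1-null and 11.86, 11.87 and 11.82 in wild type (-0.38 ± 0.12 SE, adjusted p = 0.17). Edem1, a mannosidase-like lectin of that route, was the other ERAD gene without overlap (-0.15 ± 0.08). Derl3, a derlin of the retrotranslocation channel, had a higher mean and overlapped. The 3 genes of protein entry, Sec61a1 and Sec61b of the translocon and Sec11c of signal peptidase, had lower means, with differences of -0.35 to -0.10. Sec61b has 3 probe sets, whose jejunal differences were -0.35, -0.30 and -0.34, and whose ileal differences had both signs (0.03, -0.02 and -0.04), so its values are uncertain.

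**Figure D1:**
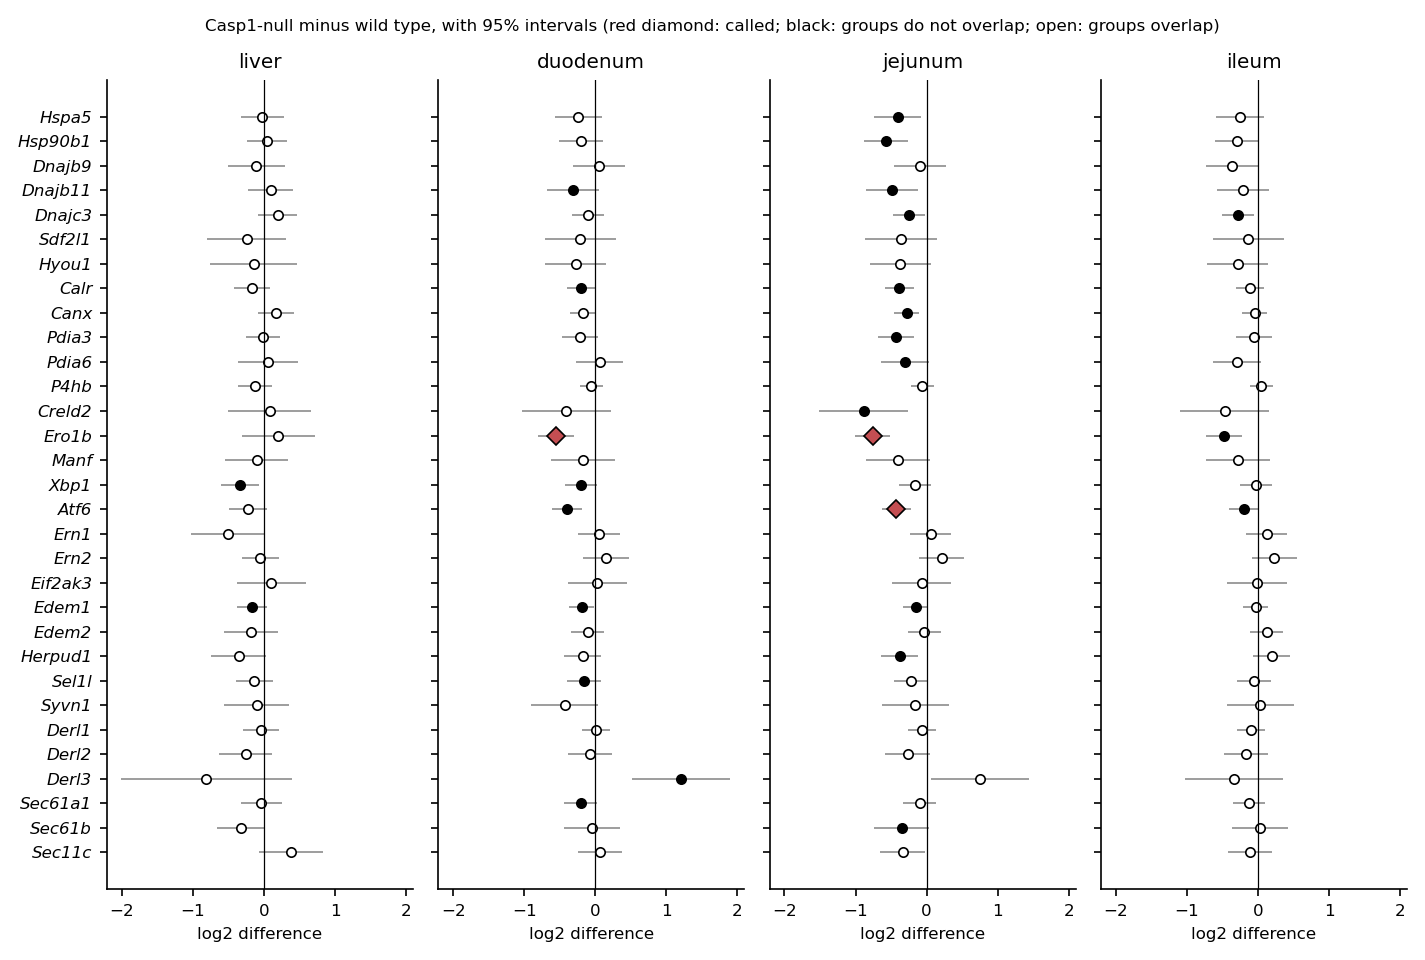
Log2 difference of Casp1-null minus wild type for 31 genes (rows, by role) in 4 tissues (panels), with 95% intervals from limma. Red diamonds are called genes (Ero1b in duodenum and jejunum, Atf6 in jejunum), black points are other genes whose 3 Casp1-null arrays do not overlap the 3 wild-type arrays, and open points overlap; in jejunum 28 of 31 points lie left of 0.

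The holders of ERSE or ERSE-II shown above were compared with the other genes of the list as a description. Of the 12 holders, 11 had a lower mean in Casp1-null jejunum, against 50.7% of all genes, with a median log2 difference of -0.38. In 10 the Casp1-null arrays lay below all wild-type arrays, against 9.24% of all genes. Derl3 had a higher mean, and Syvn1, the ubiquitin ligase of ERAD, overlapped. Of the 12 measured genes with a window and neither motif, 11 also had a lower mean but 3 did not overlap (Edem1, Pdia3 and Sec61b), with a median of -0.16. Outside the list, 17 measured genes held one of the motifs, of which 11 had a lower mean, 0 were called and the median was -0.12. Overlap was not counted for these 17. In the ileum the medians were -0.27 for holders and -0.03 for the 12 without, and in the duodenum -0.20 and -0.09. In the liver the order was the other way, with 0.05 and -0.17. Atf6 and 6 other measured genes had no window in the table.

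In the duodenum 23 of 31 genes had a lower Casp1-null mean, against 54.9% of all genes, with a median log2 difference of -0.18, against -0.023. Ero1b was the 1 gene called of 31, against 1.21% of all genes called in either direction and 1.78% of genes above the median of all values, and 5 of 31 had an unadjusted p under 0.05, against 13% of all genes. In 8 of 31 the Casp1-null arrays lay below all wild-type arrays, against 11.1%: Atf6, Calr, Dnajb11, Edem1, Ero1b, Sec61a1, Sel1l and Xbp1. Dnajb11, a J-domain cochaperone of BiP, was 9.08, 9.34 and 9.29 in Casp1-null and 9.48, 9.60 and 9.58 in wild type (-0.32 ± 0.17 SE, adjusted p = 0.477). Xbp1 was 11.50, 11.40 and 11.28 in Casp1-null and 11.53, 11.64 and 11.62 in wild type (-0.20 ± 0.11, adjusted p = 0.458). These arrays lay apart by little, and neither gene passed the threshold. Without the 3 arrays that carried pancreas or muscle markers, 26 of 31 genes had a lower mean and 0 were called (Ero1b -0.51, adjusted p = 0.084).

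Derl3 went the other way in the duodenum, with 7.17, 6.50 and 6.55 in Casp1-null, against 5.64, 5.74 and 5.20 in wild type. It was the 1 gene of 31 whose Casp1-null arrays lay above all wild-type arrays there, against 11.6% of all genes, and its difference of 1.21 ± 0.32 (SE, 2.31-fold) did not pass the threshold (adjusted p = 0.105). Derl3 is abundant in plasma cells and other professional secretory cells. The mean of 11 measured B and plasma cell markers, of 12 listed, was 5.37 to 5.70 in Casp1-null and 4.86 to 5.08 in wild-type duodenum. The wild-type values were near the intestinal array medians of 4.87 to 5.01. Of the 11, 4 were lower in Casp1-null and 0 were called. Exocrine pancreas markers were at 5.18 to 5.32 in Casp1-null and reached 9.99 on wild-type array 1. Without overlap, smooth muscle and stroma markers were higher in Casp1-null (4.96 to 5.26 and 4.52 to 4.65) and hepatocyte markers lower (4.41 to 4.46 and 4.52 to 4.88). The part of any of these cells in the Derl3 difference was not tested. Derl3 also varied most within groups, with a pooled SD of 0.55, followed by Creld2 at 0.38 and Sdf2l1, a stress-induced partner of the BiP cochaperones, at 0.32. The smallest pooled SDs were those of P4hb (0.076), Edem1 (0.078) and Canx, the membrane lectin calnexin (0.089).

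In the ileum 24 of 31 genes had a lower Casp1-null mean, against 52.3% of all genes, with a median of -0.11, against -0.0072. None of the 31 was called, against 0.893% of all genes and 1.29% of those above the median of all values, and 2 had an unadjusted p under 0.05 (limma), against 6.9%. Non-overlapping and lower were 3 of 31, against 4.74% of all genes: Ero1b, Atf6 and Dnajc3. In 0 of 31 did the Casp1-null arrays lie above, against 4.49%. Dnajc3, a cochaperone of BiP that also restrains PERK, was 10.31, 10.47 and 10.19 in Casp1-null ileum, against 10.66, 10.47 and 10.70 in wild type (-0.28 ± 0.11 SE, adjusted p = 0.509). Its highest Casp1-null array and lowest wild-type array had the same rounded value, 10.47. Casp1-null ileum 2 was the highest of its group for 21 of the 31 genes. It had 12.26 for Hspa5, against 11.69 and 11.68 on the other Casp1-null arrays and 12.16, 12.03 and 12.20 in wild type. Creld2 followed the same order, with 10.98 on that array, 9.89 and 9.90 on the other Casp1-null arrays and 10.81, 10.53 and 10.85 in wild type.

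In the fasted liver no gene of the 31 was called, against 0.925% of all genes and 1.09% of those above the median of all values, in a limma fit of the 6 liver arrays, and 1 had an unadjusted p under 0.05, against 12.8%. The mean was lower in Casp1-null for 22 of 31, against 51.7% of all genes, with a median of -0.10. Without Casp1-null liver 3 it was lower for 17 of 31. Xbp1, at 11.49, 11.64 and 11.48 in Casp1-null and 12.00, 11.70 and 11.94 in wild type, and Edem1, at 11.12, 11.13 and 11.01 and at 11.27, 11.18 and 11.32, were the 2 whose Casp1-null arrays lay below all wild-type arrays, against 11.1% of all genes, and 0 lay above, against 8.96%. Their differences were -0.34 ± 0.11 and -0.17 ± 0.09 (SE, adjusted p = 0.298 and 0.548). All 8 ERAD genes had a lower mean, with differences of -0.81 to -0.04 and 0 called, whereas 3 of 7 chaperones and 3 of 5 oxidative folding genes had a higher one. The -0.81 was that of Derl3, a gene abundant in plasma cells, which overlapped, with 6.23, 6.74 and 5.88 in Casp1-null liver and 6.79, 6.23 and 8.25 in wild-type liver. Herpud1 followed at -0.36. B and plasma cell markers averaged 4.55 to 4.68 in Casp1-null and 4.84 to 5.11 in wild-type liver, without overlap. Both ranges lay under the liver array medians of 5.19 to 5.22. Of 11 measured markers 10 were lower in Casp1-null, with a median difference of -0.40 and 0 called. Enterocyte markers (6.42 to 6.57 and 6.65 to 7.05) and goblet cell markers (4.65 to 4.73 and 4.83 to 5.14) were likewise lower without overlap. Ranges of the other marker lists overlapped. The part of any of these cells in the ERAD differences was not tested. Hspa5 differed by -0.02 (95% interval -0.32 to 0.28) and Hsp90b1 by 0.04 (-0.23 to 0.32).

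Across tissues, 18 of the 31 genes had a lower Casp1-null mean in all 3 segments and 12 of these also in liver, among them Atf6, Calr, Hspa5, Pdia3 and Xbp1. The matching shares of all genes were not computed. The genotype difference in liver was then set against its mean over the segments, in a fit of all 24 arrays. Ero1b was the 1 gene called, against 2.78% of all genes. At an unadjusted p under 0.05 there were 8 of 31, against 14.4%. Ero1b was 9.17, 9.06 and 8.39 in Casp1-null liver and 8.81, 8.48 and 8.71 in wild-type liver, overlapping, whereas it was lower in Casp1-null in each segment. The genotype difference was 0.80 ± 0.19 (log2, SE) higher in liver than in the segments (adjusted p = 0.0265). That call was lost in 4 of 24 fits that left out 1 array, each a liver array (Casp1-null 1 or 2, wild type 2 or 3), with an adjusted p of up to 0.111. Organ and feeding state cannot be told apart here. Among the 3 segments the genotype difference itself was called different for 0 of 31 genes, against 0.117% of all genes (limma interaction F test), with 2 of 31 (Derl3 and Herpud1) and 5.56% of all genes at an unadjusted p under 0.05. The lowest adjusted p among the 31 was 0.716, for Derl3.

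**Figure D2:**
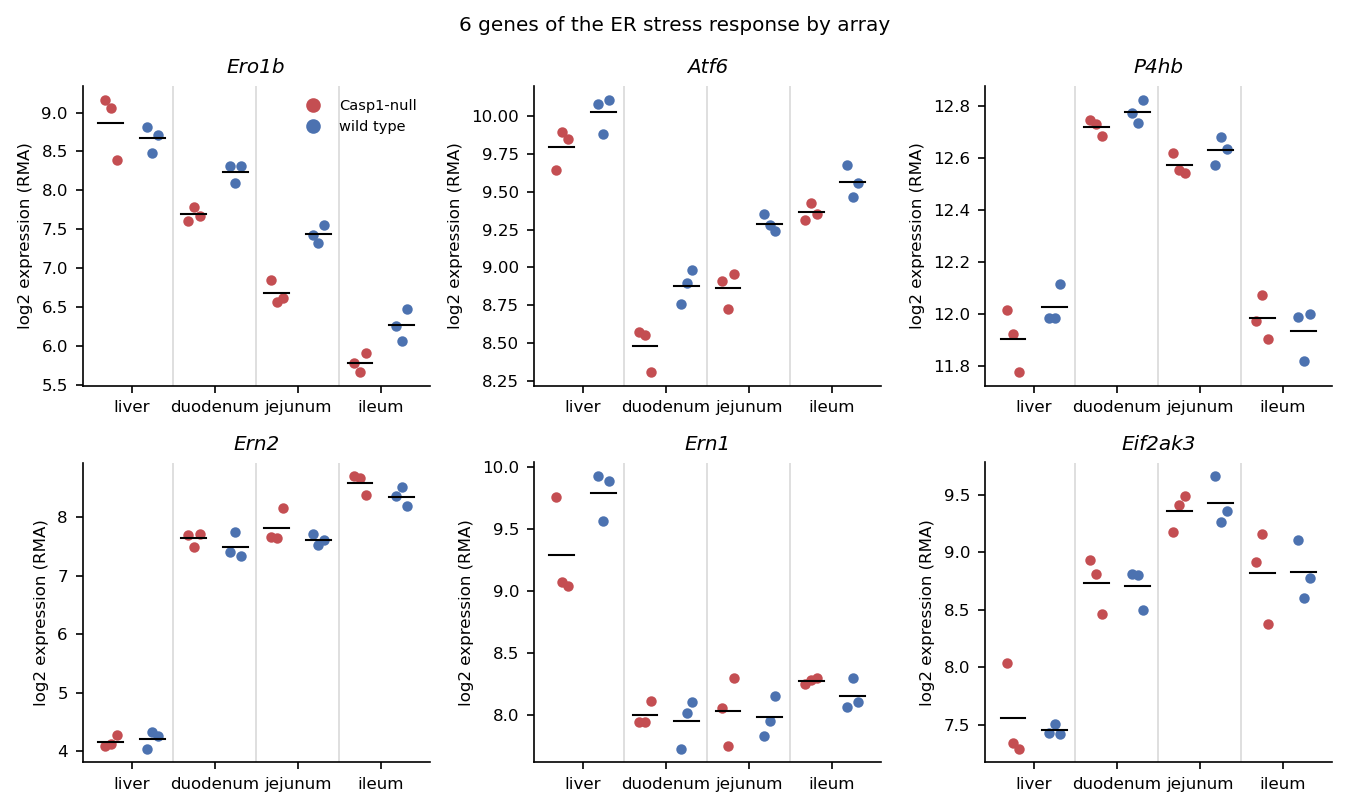
Log2 expression of 6 genes on each of the 24 arrays, with Casp1-null (red) left of wild type (blue) in each tissue and a bar at each group mean. Ero1b and Atf6 lie lower in Casp1-null in every segment without overlap, Ero1b and P4hb decline towards the ileum while Atf6 and Ern2 rise, and Ern2 is near 4 in liver.

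Within groups, 1 array was often the highest or the lowest for most of the 31 genes. Wild-type jejunum 1 was highest for 22, against 41.4% of all genes, Casp1-null ileum 2 for 21 (42.1%), Casp1-null duodenum 2 for 20 (35.8%) and Casp1-null jejunum 1 for 19 (32%). Wild-type liver 2 was lowest for 24, against 33.8% of all genes, and Casp1-null liver 3 for 23 (34.3%). Lowest for 17 and 25 were Casp1-null ileum 3 and wild-type ileum 2, against 42.5% and 48.3% of all genes. These are the 2 arrays that carried smooth muscle and stroma markers, whose part in the lower levels was not tested. On Casp1-null duodenum 2, for instance, Hspa5 was 12.14, against 11.66 and 11.84 on the other Casp1-null arrays, and Sdf2l1 was 10.49, against 9.65 and 9.87. The 31 genes are not independent of one another, and a count of genes with a lower mean can turn on few arrays. In the jejunum, leaving out any 1 array of that segment left 26 to 29 of 31 with a lower mean. Arrays of the other segments do not enter that count. Without 1 array of the segment, the count ranged over 20 to 26 in the ileum and over 23 to 26 in the duodenum. Leaving out 1 array at a time cannot tell whether a count turns on several arrays together.

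**Figure D3:**
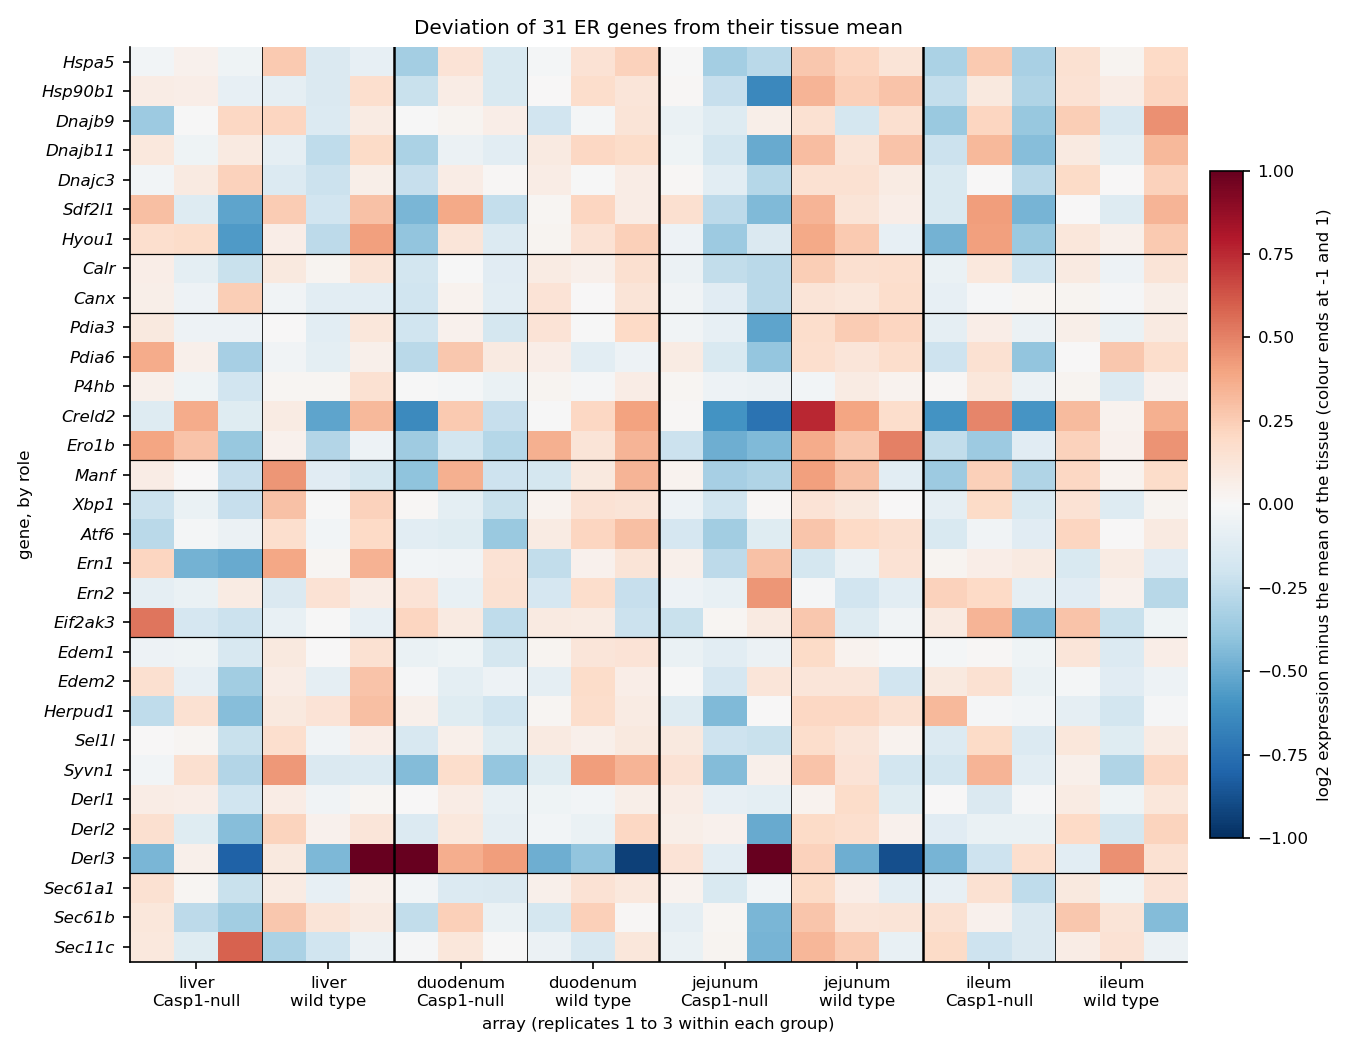
Log2 level of each of 31 genes (rows, by role) on each of 24 arrays (columns), as the deviation from the mean of its tissue's 6 arrays, red above and blue below. Columns of 1 colour show arrays on which most genes lie high or low together, such as Casp1-null ileum 2 (23 of 31 above the tissue mean) and Casp1-null liver 3 (6 of 31), and the wild-type jejunal arrays have 20 to 28 genes above the tissue mean, against 4 to 14 in Casp1-null jejunum.

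Levels of several genes differed along the intestine in the same direction in both genotypes. Ero1b declined from the duodenum down: the Casp1-null means were 7.69, 6.68 and 5.79 in duodenum, jejunum and ileum, and the wild-type means were 8.24, 7.44 and 6.27, with each neighbouring pair called different in both genotypes. Duodenum exceeded ileum by 1.90 ± 0.12 in Casp1-null (SE, 3.74-fold, adjusted p = 5.46e-08) and by 1.97 ± 0.12 in wild type (3.91-fold, adjusted p = 2.11e-08). P4hb, whose product Ero1b oxidises, was 12.75, 12.73 and 12.69 in Casp1-null duodenum and 11.97, 12.07 and 11.90 in Casp1-null ileum (0.74 ± 0.08, adjusted p = 7.38e-06). In wild type P4hb was 12.77, 12.73 and 12.83 in duodenum and 11.99, 11.82 and 12.00 in ileum (0.84 ± 0.08, adjusted p = 1.36e-06). Ileum was also called below jejunum for P4hb, by 0.59 in Casp1-null and 0.70 in wild type, whereas duodenum exceeded jejunum by 0.15 in both genotypes, which was not called (adjusted p = 0.392 and 0.331). Enterocyte markers were also lower in ileum than in jejunum, called for 7 of 12 in Casp1-null (median -0.42) and for 8 of 12 in wild type (median -0.53). Their mean was 12.1 to 12.4 in duodenum, 12.5 to 12.6 in jejunum and 11.7 to 11.8 in ileum of Casp1-null mice, and 12.3 to 12.4, 12.5 and 11.3 to 11.9 in wild type. Their part in the decline of Ero1b, P4hb and Dnajb9 towards the ileum was not tested.

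Atf6 ran the other way, with duodenum below ileum by 0.89 ± 0.10 in Casp1-null (adjusted p = 1.52e-05) and by 0.69 ± 0.10 in wild type (adjusted p = 0.000109). Ern2, the IRE1 paralogue of mucosal epithelia, was 7.71, 7.50 and 7.72 in Casp1-null duodenum and 8.71, 8.67 and 8.39 in Casp1-null ileum (-0.95 ± 0.15, adjusted p = 0.000412). In wild type Ern2 was 7.40, 7.74 and 7.33 in duodenum and 8.36, 8.51 and 8.19 in ileum (-0.86 ± 0.15, adjusted p = 0.000629). Ileum also exceeded jejunum for Ern2, by 0.76 in Casp1-null (adjusted p = 0.00475) and by 0.74 in wild type (adjusted p = 0.0044). Goblet cell markers averaged 9.45 to 9.52 over duodenal arrays and 9.97 to 10.6 over ileal arrays, and Paneth cell markers 6.47 to 7.88 and 9.69 to 10.9. Their part in the Atf6 and Ern2 differences was not tested.

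Between duodenum and ileum 11 of 31 genes were called in Casp1-null, against 21% of all genes, and 10 of 31 in wild type, against 27.9%. Called in both, with the same sign, were 7: Ero1b, P4hb, Derl1 and Sel1l higher in duodenum, and Atf6, Ern2 and Canx lower. Those 7 are 63.6% of the Casp1-null and 70% of the wild-type calls, and 0 were called in opposite directions. The matching shares over all genes were not computed, so these do not set the 31 genes apart. Derl1 and Sel1l, a derlin and the adaptor of the ubiquitin ligase Syvn1, were higher in duodenum by 0.49 and 0.36 in Casp1-null and by 0.38 and 0.46 in wild type. Called in Casp1-null alone were Dnajb9 (0.87), Syvn1 (-0.72), Derl3 (1.04) and Edem2 (-0.34), and in wild type alone Herpud1 (0.66), Pdia6 (-0.68) and Sec11c (-0.42). Derl3 had the opposite sign in wild type, where its difference of -0.51 ± 0.32 (SE) did not pass the threshold (adjusted p = 0.287). The segment differences were not called different between genotypes for any of them (the interaction test above). Without the 3 arrays that carried pancreas or muscle markers the wild-type count was 6 of 31, with Canx, Sel1l, Derl1 and Sec11c lost. Among fits that left out 1 array, Sel1l in Casp1-null lost its call in 10 of 18 (adjusted p up to 0.159, the highest without Casp1-null duodenum 2), and Canx in wild type in 6 of 18 (up to 0.147), namely without any one of the 6 wild-type duodenal and ileal arrays. Of the genes called in 1 genotype alone, Edem2 lost its call in 7 of 18, Derl3 in 5 of 18, Syvn1 in 4 of 18 and Sec11c in 11 of 18, whereas Dnajb9, Herpud1 and Pdia6 kept theirs in all 18.

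**Figure D4:**
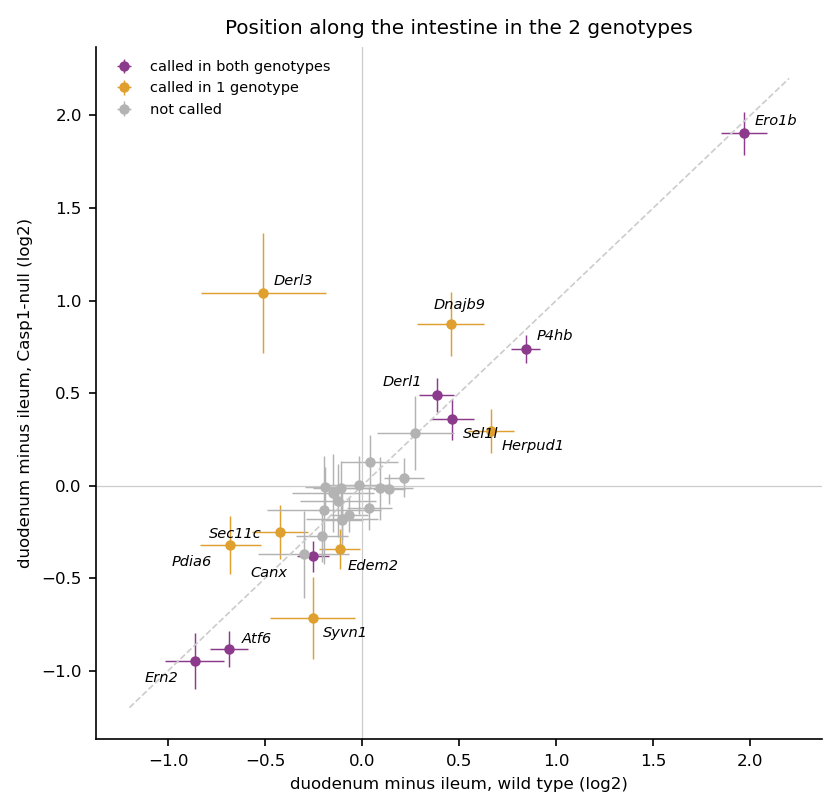
Log2 difference of duodenum minus ileum for 31 genes, in Casp1-null (y axis) against wild type (x axis), with standard errors and the line of equal values dashed. Purple genes are called in both genotypes (7), orange genes in 1, and Ero1b is the farthest from 0 in both, at 1.90 and 1.97.

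Against jejunum, 4 of 31 genes were called in Casp1-null duodenum (Ero1b, Derl1 and Sel1l higher, Atf6 lower), against 5.85% of all genes, and 3 of 31 in wild-type duodenum (Ero1b higher, Atf6 and Eif2ak3 lower), against 7.76%. Eif2ak3, the gene of PERK, had its highest mean in the jejunum in both genotypes. It was 8.93, 8.81 and 8.46 in Casp1-null duodenum and 9.17, 9.41 and 9.49 in Casp1-null jejunum (-0.62, adjusted p = 0.103). In wild type it was 8.81, 8.80 and 8.50 in duodenum and 9.66, 9.27 and 9.36 in jejunum (-0.73, adjusted p = 0.0408). The groups did not overlap in either genotype. Between ileum and jejunum 5 of 31 were called in Casp1-null, against 12.8% of all genes, and 6 of 31 in wild type, against 15.4%. Ero1b, P4hb and Dnajb9 were lower and Ern2 higher in ileum in both genotypes. Dnajb9, a BiP cochaperone that represses IRE1, was 9.82, 10.40 and 9.81 in Casp1-null ileum and 10.95, 10.89 and 11.08 in Casp1-null jejunum (-0.96 ± 0.17 SE, adjusted p = 0.00226). In wild type it was 10.44, 10.03 and 10.65 in ileum and 11.17, 10.85 and 11.18 in jejunum (-0.70 ± 0.17, adjusted p = 0.0146). Herpud1 (-0.77, adjusted p = 0.000622) and Xbp1 (-0.35, adjusted p = 0.0405) were called lower in ileum in wild type alone, and Atf6 higher in ileum in Casp1-null alone (0.50, adjusted p = 0.00443). Without the 3 arrays that carried pancreas or muscle markers, wild type lost the calls of Atf6 between duodenum and jejunum (adjusted p = 0.107) and of Dnajb9 and Xbp1 between ileum and jejunum (0.0743 and 0.176), and Casp1-null those of Derl1 and Sel1l between duodenum and jejunum (0.0597 and 0.0513).

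Several of these jejunal contrasts also turned on single arrays. The wild-type Eif2ak3 call was lost in 10 of 18 fits that left out 1 array (adjusted p up to 0.145), namely without any one of the 6 wild-type duodenal and jejunal arrays, Casp1-null duodenum 2, jejunum 2 or ileum 1, or wild-type ileum 3. The wild-type Xbp1 call was lost in 9 of 18 (up to 0.176), namely without any wild-type jejunal array, wild-type ileum 2 or 3, wild-type duodenum 2 or 3, Casp1-null duodenum 2 or Casp1-null jejunum 1. Atf6 between duodenum and jejunum lost its Casp1-null call in 9 of 18 (up to 0.160), namely without Casp1-null duodenum 2 or 3, jejunum 1 or 3, or ileum 1 or 3, or wild-type duodenum 2, jejunum 2 or ileum 3. Its wild-type call was lost in 4 of 18, without duodenum 1 or 2 or jejunum 1 or 2 of that genotype. In Casp1-null, Sel1l and Derl1 between duodenum and jejunum were lost in 12 and 11 of 18 (up to 0.172 and 0.153), in both cases without any one of the 3 Casp1-null duodenal arrays among others. Dnajb9 in wild type was lost in 3 of 18, without jejunum 1 or 3 or ileum 2. Ero1b, P4hb and Ern2 kept each of their calls between segments in all 18 fits, as did Herpud1 in wild type and Atf6 between ileum and jejunum in Casp1-null.

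Fasted liver and oil-loaded intestine differed in many of these genes, as in most others. In Casp1-null, liver differed from the mean of the segments for 16 of 31 genes (7 higher, 9 lower), against 69.9% of all genes (39.7% higher, 30.2% lower), and in wild type for 20 of 31 (9 higher, 11 lower), against 70.1% (39% and 31.1%). With each array centred on its median the split was 6 higher and 13 lower in Casp1-null and 7 and 17 in wild type, since centring moves liver down by 0.26 and 0.27 relative to intestine. So centred, 72.2% of all genes were called in Casp1-null and 74.2% in wild type. Centring changed the sign for 11 of 31 genes in Casp1-null and 7 of 31 in wild type, 0 of them called as deposited. Once centred, Derl1 in both genotypes and Calr in wild type were called lower in liver. In both genotypes and under both scalings 6 genes were called higher in liver (Atf6, Dnajc3, Pdia6, Ern1, Derl2 and Ero1b) and 8 lower (Dnajb9, Edem1, P4hb, Manf, Ern2, Eif2ak3, Sec61a1 and Sec11c). The share of all genes that meet this rule was not computed. Of these 14, Sec61a1 in Casp1-null lost its call in 18 of 24 fits that left out 1 array (adjusted p up to 0.365, the highest without Casp1-null liver 3) and Sec11c in Casp1-null in 1 of 24 (without Casp1-null liver 2), and the other 12 kept theirs in all 24 in both genotypes.

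The 2 IRE1 genes were divided between the organs. Ern1 was 9.76, 9.07 and 9.04 in Casp1-null liver and 7.75 to 8.30 over the 9 Casp1-null intestinal arrays, a difference of 1.18 ± 0.14 (SE, 2.27-fold, adjusted p = 3.72e-07). In wild-type liver it was 9.93, 9.56 and 9.89, against 7.73 to 8.30 in the segments (1.77 ± 0.14, 3.40-fold, adjusted p = 1.02e-09). Ern2 was 4.09, 4.12 and 4.27 in Casp1-null liver and 4.04, 4.33 and 4.26 in wild-type liver, under the array median in both. Taking the lowest liver array median in its place, Ern2 was at least 7.12-fold lower in liver than the segments' mean in Casp1-null and at least 6.21-fold lower in wild type (adjusted p = 1.69e-16 and 5.06e-16). Eif2ak3 was 8.04, 7.34 and 7.29 in Casp1-null liver and 7.43, 7.50 and 7.42 in wild-type liver, below all intestinal arrays of the same genotype (8.37 to 9.49 and 8.50 to 9.66). Its difference was -1.41 ± 0.17 in Casp1-null and -1.53 ± 0.17 in wild type. Manf, a secreted ER stress protein, was lower in liver by 0.94 in Casp1-null and 1.12 in wild type (adjusted p = 9.37e-05 and 1.19e-05).

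**Figure D5:**
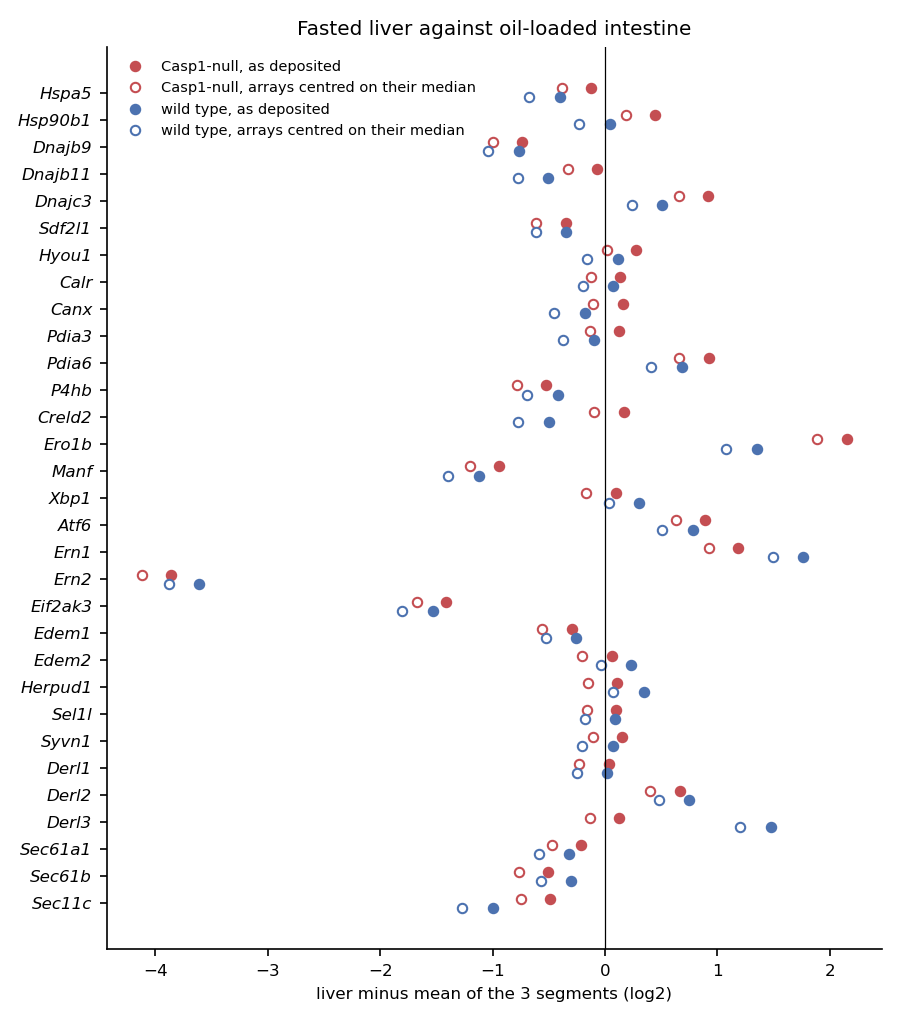
Log2 difference of liver minus the mean of the 3 segments for 31 genes (rows, by role), in Casp1-null (red) and wild type (blue), as deposited (filled) and with arrays centred on their median (open). Ern2, which is under the array median in liver, is drawn at its measured values, which give only the bounds in the text (at least 7.12-fold and 6.21-fold lower in liver), Ero1b lies at 2.15 and 1.35 and Ern1 at 1.18 and 1.77, and genes near 0, such as Calr and Derl1, change side with the scaling.

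Other genes of the same pathways were counted from 6 further lists in the 4 genotype comparisons. Called in either direction were 2.06% of all genes in jejunum, 1.21% in duodenum, 0.893% in ileum and 0.925% in liver. In the jejunum Erp44, which retains ER oxidases, was called lower among 18 measured genes of oxidative folding (-0.54 ± 0.11 SE, limma, adjusted p = 0.0248). Of these 18 genes 9 had a lower jejunal mean (median 0.0068), against 50.7% of all genes. Ddost and Rpn2, subunits of the oligosaccharyltransferase that attaches N-glycans, were called lower among 17 genes of glycosylation and the lectin cycle (-0.43 ± 0.09 and -0.37 ± 0.09, adjusted p = 0.0232 and 0.0426). The glycosylation genes had a lower Casp1-null mean for 16 of 17 in duodenum, 16 of 17 in jejunum and 17 of 17 in ileum, against 11 of 17 in liver. The shares of all genes with a lower mean were 54.9%, 50.7%, 52.3% and 51.7%, in the same order of tissues. Of 20 translocon and signal peptide genes 18 had a lower jejunal mean and 0 were called. Of 18 further ERAD genes 0 were called in any tissue, and of 9 transducers and ER-membrane transcription factors likewise 0. Their jejunal means were lower for 13 of 18 (median -0.065) and 6 of 9 (median -0.056). The list of PERK and amino acid stress targets had 12 measured genes, of which Asns in liver was the 1 called in any tissue (4.05 ± 0.15, adjusted p = 0.000117). In jejunum 10 of these 12 had a lower mean, with a median of -0.35, whereas in liver 3 of 12 did, with a median of 0.15.

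Cell type markers were read beside the jejunal result. Enterocyte markers averaged 12.5 to 12.6 in Casp1-null and 12.5 in wild-type jejunum, goblet cell markers 9.66 to 9.73 and 9.65 to 9.86, Paneth cell markers 8.19 to 9.43 and 7.77 to 8.86, and B and plasma cell markers 5.12 to 6.08 and 4.70 to 6.43. All 4 lists overlapped between the genotypes. Lower in Casp1-null were 9 of 12 enterocyte (median -0.044), 6 of 9 goblet (-0.064), 1 of 6 Paneth (0.60) and 7 of 11 B and plasma cell markers (-0.22). The share of all genes was 50.7%, and 0 of these markers were called. T cell markers also overlapped, at 7.50 to 7.99 in Casp1-null and 7.71 to 7.87 in wild type. Exocrine pancreas markers were at 5.19 to 5.35 in Casp1-null and 5.14 to 5.43 in wild type, and smooth muscle and stroma markers at 4.56 to 5.63 and 4.53 to 4.84. The part of cell composition in the lower levels of the folding genes was not tested.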

How the data were processed

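The authors deposited log2 expression values per probe set, which the submitters' processing notes name as RMA; its version and the array's genome build are not given in the sources used here. Each of 24 arrays (3 per group) was used, and their number limits the precision. Of 35556 probe sets, 21218 carry 1 gene symbol, 1881 several and 12457 none in the platform annotation, with symbols updated through gene IDs to RefSeq GRCm38.p6. Probe sets of 1 symbol were used, 1 per gene (highest mean over all arrays), and all 31 measured genes are reported. From each further list, up to 3 called genes per genotype comparison are named, by smallest p. The members and lists were chosen with earlier results of these data known.

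Differences were tested with limma 3.58.1 (lmFit, eBayes) in R 4.3.3, with no filter, over all probe sets, with Benjamini-Hochberg adjustment and a threshold of 0.05. Liver was fitted alone (4 residual degrees of freedom), the intestine on 18 arrays (12) and liver against segments on 24 arrays (16). Intervals are 95%. A level under the lowest array median was treated as a bound. The scripts were tested on simulated data. Whether replicate numbers pair the samples was not settled. Same-numbered arrays of the 2 genotypes correlated over 0.1 in 1 of 12 pairs (-0.38 to 0.30). Those of different segments did so in 5 of 18 (-0.098 to 0.17). With 3 arrays per group these values cannot exclude that segments came from the same mice. The main fits treated segments as unpaired. Alternatives were a median filter, a trended robust prior, centring of arrays, array weights, each segment fitted alone, the replicate block and leaving out single arrays. Leaving out the 3 arrays with pancreas or muscle markers was added after seeing the data. Motifs were searched with Python 3.11.15.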

Additional observations from a re-analysis of the deposited data

Results flagged for a closer look

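The genotype difference of Ero1b was 0.80 higher (log2, adjusted p = 0.0265, limma) in liver than in the mean of the 3 segments, in a test of the difference itself. It was 0.20 in liver, where 2 of 3 Casp1-null arrays lay above the wild-type arrays, and -0.55, -0.76 and -0.48 in duodenum, jejunum and ileum, where all 9 Casp1-null arrays lay below the wild-type arrays of their segment. Leaving out 1 array moved the value between 0.65 and 1.04.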

How the results depend on the processing

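The calls between genotypes are few. Those of Ero1b in duodenum and Atf6 in jejunum sit close to the threshold (limma, adjusted p = 0.0365 and 0.041), and that of Ero1b in jejunum is at 0.00309. Counts of called genes among the 31 were as follows. For Casp1-null minus wild type in duodenum, reported as 1, the count was 0 with a trended robust prior, with centred arrays, with the segment's 6 arrays alone, with the replicate block and without the 3 arrays carrying pancreas or muscle markers, and 2 with array weights. In jejunum, reported as 2, it was 4 with the median filter and with array weights, 0 with the segment alone, 1 with the replicate block and 1 without the 3 arrays. In ileum, reported as 0, it was 1 with array weights. For wild-type duodenum minus jejunum, reported as 3, it was 5 with the filter and with array weights. For wild-type duodenum minus ileum, reported as 10, it was 6 without the 3 arrays. For Casp1-null duodenum minus jejunum, reported as 4, it was 2 with centred arrays, 1 with the replicate block and 2 without the 3 arrays. The cause of these shifts was not tested. Whether replicate numbers pair the samples was not settled.

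Leaving out 1 array gave 0 to 0 calls in liver, 0 to 1 in duodenum, 1 to 4 in jejunum and 0 to 1 in ileum. For the segments it gave 1 to 4, 4 to 7 and 8 to 11 in wild type (duodenum minus jejunum, ileum minus jejunum, duodenum minus ileum) and 1 to 4, 5 to 6 and 7 to 11 in Casp1-null. It gave 0 to 0 for the interaction over segments, 0 to 1 for that with liver, 19 to 21 for wild-type liver minus segments and 15 to 17 for Casp1-null. The ileal count became 1 without wild-type ileum 2, and the lowest counts for Casp1-null duodenum minus ileum came without Casp1-null duodenum 1 or 3.

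Directions reversed for small differences of liver minus segments that were not called as reported. With centred arrays these were, in Casp1-null, Calr (-0.12), Canx (-0.10), Creld2 (-0.095), Derl1 (-0.23), Derl3 (-0.13), Edem2 (-0.20), Herpud1 (-0.15), Pdia3 (-0.13), Sel1l (-0.16), Syvn1 (-0.11) and Xbp1 (-0.17). In wild type they were Calr (-0.20), Derl1 (-0.25), Edem2 (-0.037), Hsp90b1 (-0.23), Hyou1 (-0.16), Sel1l (-0.18) and Syvn1 (-0.20). Of these centred differences, Derl1 in Casp1-null (limma, adjusted p = 0.0178) and Calr and Derl1 in wild type (0.0426 and 0.00934) passed the threshold as lower in liver. Derl1 in wild type was -0.0026 without the 3 arrays, and -0.0089 and -0.0056 without wild-type liver 1 or jejunum 3, within a range over single left-out arrays that reached 0.048. In Casp1-null it was -0.014 and -0.0066 without liver 1 or 2, with a range up to 0.12, and Dnajb11 was 0.0030 without ileum 2. Of 3348 recomputed values of counts and of genes called in at least 1 setting, 3019 kept their direction and side of the threshold.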

Other observations

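Creb3l1, Creb3l2 and Creb3l3 encode ER-membrane transcription factors that are cleaved like ATF6, and they are named here after their values were seen. Creb3l2 was higher in duodenum than ileum by 1.96 ± 0.23 (log2, SE) in Casp1-null and by 1.93 ± 0.23 in wild type (adjusted p = 3.23e-05 and 2.59e-05, limma). Creb3l3 was likewise higher in duodenum, by 1.15 ± 0.21 in Casp1-null and 1.71 ± 0.21 in wild type (adjusted p = 0.00114 and 2.6e-05). Creb3l1 was lower in duodenum, by -1.45 ± 0.19 and -1.48 ± 0.19 (adjusted p = 8.46e-05 and 4.71e-05), the direction shown by Atf6 and Ern2.

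Agr2, a disulphide isomerase of mucus-secreting cells, and Selenom, an ER selenoprotein, were also named after their values were seen. Agr2 was lower in duodenum than ileum by -0.51 ± 0.10 in Casp1-null and -0.64 ± 0.10 in wild type (adjusted p = 0.00287 and 0.000363). Selenom was lower in duodenum by -1.07 ± 0.15 in Casp1-null and -1.47 ± 0.15 in wild type (adjusted p = 0.000136 and 5.14e-06). Ero1a, the paralogue of Ero1b, was among the called oxidative folding genes in wild type, higher in duodenum by 0.76 ± 0.14 (limma, adjusted p = 0.000795). Its Casp1-null difference is not given here, so no contrast between the genotypes is drawn for it.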
